A study of Mus musculus with 5 samples.

Results

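Polrmt, Tfam, Tfb1m, Tfb2m, Polg, Polg2, Ssbp1 and Nrf1 are 8 nuclear genes whose products transcribe and copy the mitochondrial genome, or, for Nrf1, control genes that do. They were taken by symbol from the 17323 genes that the 23809 probe sets of the arrays name, and each was measured by 1 probe set. The group was picked because Polrmt was among the largest falls in these same arrays, so the members were selected on the contrast described here, and their values are given as a description with no test. Pro-B cells, gated as B220+IgM-CD43+CD24+ cells of mouse bone marrow at 9 months of age, were measured on 5 Affymetrix arrays. The genotypes were compared to learn which transcripts depend on the transcription factor MEF2C in B-lymphoid progenitors. Control was the only genotype label of 3 arrays, and according to the methods a control mouse could carry Mef2c fl/fl or Mef2c fl/+ without Cre, or Mef2c fl/+ with Vav-Cre, and which array had which is not stated. The other 2 arrays were from Vav-Cre Mef2cfl/fl mice, in which Cre, driven in haematopoietic cells, removes the floxed part of Mef2c from the whole blood system and not from pro-B cells alone. No irradiation or other treatment is given for these samples.

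Mitochondria keep a small circular genome that encodes core subunits of the respiratory chain and the RNAs needed to translate them, while every protein that copies or transcribes it is encoded in the nucleus. POLRMT, the mitochondrial RNA polymerase, starts transcription together with TFAM, which bends and packages the DNA, and TFB2M, which opens the promoter, and it also lays down primers for replication. The DNA polymerase is made of the catalytic subunit POLG and the accessory subunit POLG2, works behind the helicase Twinkle, and needs SSBP1 to cover single strands. NRF1, a nuclear factor that binds a GC-rich palindrome in many promoters of mitochondrial genes, is a different protein from NFE2L1, which has shared the name.

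Promoter sequence is shown for Polrmt, the member with the most negative fold change, and for the 3 members with fold changes closest to 0, so that they can be read beside the values that follow. Each stretch holds the 120 bases directly before the annotated gene, on the minus strand, 5′ to 3′, from RefSeq on GRCm38.p6. Capitals mark the NRF1 core GCGCATGC, the ETS core CCGGAAG that GABP binds, printed as its reverse complement in Polrmt and Polg2, and the GC box GGGCGG that SP1 binds.
Polrmt, chr10:79746605-79746724: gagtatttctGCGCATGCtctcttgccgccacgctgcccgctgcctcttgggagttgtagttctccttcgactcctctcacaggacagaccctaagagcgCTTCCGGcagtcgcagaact
Polg2, chr11:106779538-106779657: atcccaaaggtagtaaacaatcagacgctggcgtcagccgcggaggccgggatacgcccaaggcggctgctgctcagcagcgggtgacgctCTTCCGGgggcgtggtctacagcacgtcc
Tfb1m, chr17:3557797-3557916: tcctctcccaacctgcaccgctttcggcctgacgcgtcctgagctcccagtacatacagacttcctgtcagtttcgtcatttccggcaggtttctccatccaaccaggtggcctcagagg
Tfb2m, chr1:179546306-179546425: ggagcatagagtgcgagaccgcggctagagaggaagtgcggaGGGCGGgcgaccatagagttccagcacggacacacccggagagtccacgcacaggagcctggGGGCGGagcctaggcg
The stretch of Polrmt held an NRF1 core and an ETS core, that of Polg2 an ETS core, that of Tfb2m GC boxes and that of Tfb1m none of these letters.

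In RefSeq promoter windows that run from 250 bases before to 50 bases after each start, both strands were searched, and all 8 members had a window. The NRF1 core lay in 2 of 8 members, at −133 to −126 from the start of Polrmt and at 13 to 20 after that of Tfb2m, and in 2.71% of all 32851 windows. An ETS core lay in 5 of 8 members (Polrmt, Tfam, Polg, Polg2 and Ssbp1) and in 8.86% of windows. A GC box lay in 6 of 8 members, all but Polrmt and Polg2, and in 35.66% of windows. The MEF2 consensus was found in 1 member, at −95 to −86 from the second start of Nrf1, and in 1.86% of windows. No match of one motif overlapped a match of another in these windows, although a pair of GC boxes of Polg overlapped each other. The GC content of the windows was 52.0% for Polrmt, 67.3% for Tfb2m and 70.3% for Tfam, against a median of 52.7% over all windows. A match shows only that the letters are there.

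The 5 arrays had medians of 181 to 238, and since there are only 5, their number limits the precision of every value here. The methods call the sorted samples independent, and the labels name no animal, so the spread between arrays may be partly technical. Mef2c itself, the deleted gene, had deposited values of 14006, 20854 and 17220 in control and 7379 and 6219 in Mef2c-deficient pro-B cells. Its log2 fold change was −1.34 (standard error 0.28, limma adjusted p = 0.103), or 1.90-fold lower in signal, and both Mef2c-deficient arrays were below every control array. The position of its probe set relative to the floxed part was not examined. Mef2c did not meet the call after further quantile normalization (−0.43), cyclic loess (−0.32), housekeeping centring (−0.57) or array weights (−1.26), nor did it reach a fold of 2 in signal.

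Deposited values stand on a linear scale in arbitrary units, and fold changes are of these values unless they are named as signal. They reach 2045829, and 296 to 422 values per array exceed the range of a 16-bit scanner, and on the natural log scale they span 1.15 to 14.53. The deposited numbers therefore appear to be e raised to the log2 signal, in which case folds in signal are smaller. Folds in signal are given for the members and for Mef2c. A probe set was called where limma gave a 2-fold or larger difference of deposited values together with an unadjusted p no higher than 0.05. These are the thresholds the study uses for its arrays, but its detection filter was not applied here. A 2-fold difference of deposited values may also be smaller in signal. By this call 13.5% of all probe sets were lower and 10.1% higher in Mef2c-deficient pro-B cells. No probe set had an adjusted p under 0.05 (0 of 23809, limma), 7038 had an unadjusted p under 0.05, and the smallest adjusted p was 0.102. Without Mef2c-deficient replicate 1 the number at an adjusted p under 0.05 was 1386, and without Mef2c-deficient replicate 2 it was 2524.

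All 8 members had a negative log2 fold change, from −4.21 to −0.46, with a median of −1.38 beside a median of 0.19 over all probe sets and 0.043 over all genes. The call for lower was met by 5 members, Polrmt, Tfam, Polg, Ssbp1 and Nrf1, and that for higher by 0, where 13.5% and 10.1% of all probe sets met them. Because the contrast chose the group, nothing is read from these counts. No control array reached down to either Mef2c-deficient array in 6 of 8 members, and groups were apart in this direction for 23.5% of all probe sets and in the opposite one for 27.5%. Without Polrmt, the gene that led to the group, the median of the other 7 was −1.28 and 4 met the call. In bulk RNA, fewer cells that express a gene and less RNA of it per cell cannot be told apart.

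Polrmt (chr10:79736125-79746604), which encodes the polymerase, had deposited values of 1336, 1913 and 2564 on the control arrays and of 593 and 17.3 on the Mef2c-deficient arrays. Every control array was above both Mef2c-deficient arrays, but the latter differed from each other by 34.3-fold, far more than the control arrays did. Means were 1938 ± 614 (SD, n = 3) for control and 305 ± 407 (SD, n = 2) for the Mef2c-deficient arrays. The log2 fold change was −4.21 with a standard error of 1.52, or 7.55-fold lower in signal, and it was the 17th most negative of 23809 probe sets, between −4.22 and −4.17. Mef2c-deficient replicate 1 alone differed from the control mean by −1.66 on the log2 scale, and replicate 2 alone by −6.76. The value 17.3 lay under the lower quartile of its array, 52.7, where background limits the fold. The size of the fold change of Polrmt rested on Mef2c-deficient replicate 2, without which the log2 fold change was −1.66 and the call was still met. Without control replicate 1, 2 or 3 the call was not met, although the log2 fold change was −4.45, −4.19 and −3.98, and neither was it with housekeeping centring (−3.44) or the replicate block (−3.98).

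Tfam (chr10:71225468-71238328), the factor that packages mitochondrial DNA and starts its transcription, had deposited values of 6739, 5593 and 9281 in control and 1751 and 1558 in Mef2c-deficient pro-B cells. The Mef2c-deficient arrays were close to each other and well below the lowest control array. Means were 7205 ± 1888 (SD, n = 3) and 1655 ± 136 (SD, n = 2), a log2 fold change of −2.09 (standard error 0.31) and 2.73-fold lower in signal. Tfam was the one member that met the call under all 14 alternative settings, where its log2 fold change ran from −2.32 to −1.13.

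Tfb2m (chr1:179528052-179546305), the partner of POLRMT in opening the promoter, had deposited values of 2831, 2774 and 3530 in control and 2682 and 1051 in Mef2c-deficient pro-B cells. The groups did not overlap, but Mef2c-deficient replicate 1 lay just below the lowest control array. The log2 fold change of −0.85 (standard error 0.46, 1.50-fold lower in signal) did not meet the call and was 0.00077 after cyclic loess. It was −0.17 without Mef2c-deficient replicate 2, and −1.53, meeting the call, without replicate 1. Tfb1m (chr17:3519250-3557796), a related methyltransferase that modifies the small ribosomal RNA of mitochondria, had deposited values of 2525, 1657 and 1886 in control and 1261 and 1657 in Mef2c-deficient pro-B cells. Its groups overlapped, with the same value on control replicate 2 and Mef2c-deficient replicate 2. The log2 fold change of −0.46 (standard error 0.30, 1.25-fold lower in signal) did not meet the call, and turned to 0.26 after further quantile normalization, 0.29 after cyclic loess and 0.31 with housekeeping centring. The probe set of Tfb1m, like that of Ssbp1, is of a type that can match transcripts of more than 1 gene.

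**Figure D1:**
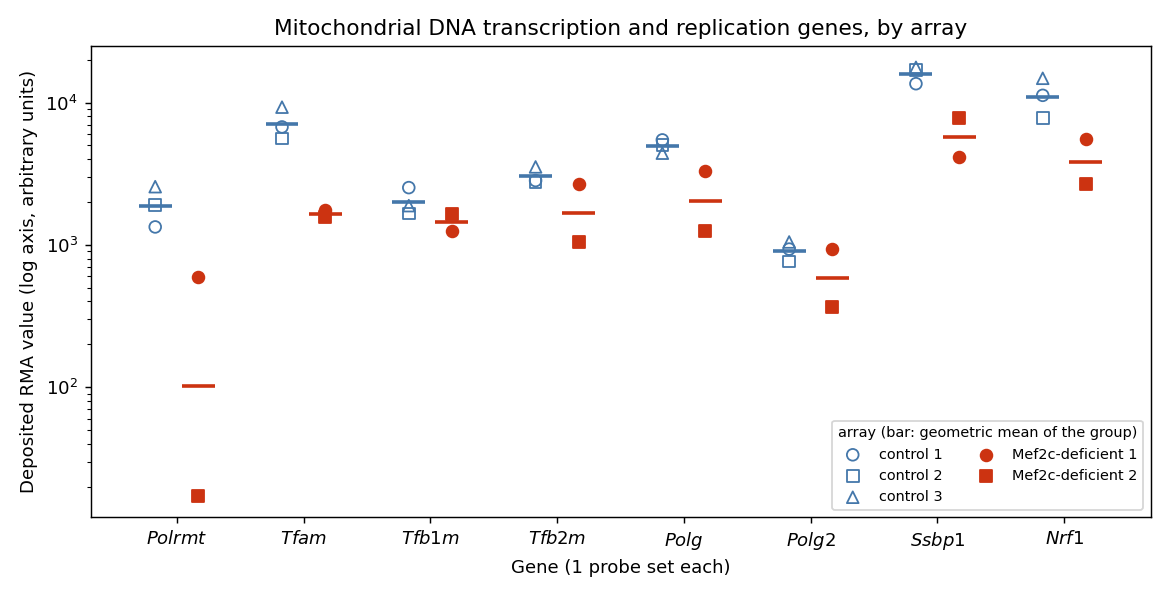
Deposited values (vertical log axis, arbitrary units) of the 8 genes on each of the 5 arrays, open symbols for control and filled symbols for Mef2c-deficient pro-B cells, with a bar at the geometric mean of each group. Polrmt on Mef2c-deficient replicate 2 stands at 17.3, apart from all other points, and the groups overlap for Tfb1m and Polg2.

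Among the replication genes, Polg (chr7:79446231-79467911), the catalytic subunit of the DNA polymerase, had deposited values of 5463, 5052 and 4409 in control and 3319 and 1258 in Mef2c-deficient pro-B cells. Both Mef2c-deficient arrays were lower than the lowest control array, replicate 2 by far the more so. Means were 4975 ± 531 (SD, n = 3) and 2288 ± 1458 (SD, n = 2), with a log2 fold change of −1.28 (standard error 0.47) and 1.85-fold lower in signal. Polg met the call under only 5 of the 14 alternatives. Its log2 fold change was −0.58 without Mef2c-deficient replicate 2 and −1.98 without replicate 1, and leaving out any single control array also ended the call.

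Polg2 (chr11:106768204-106779537), the accessory subunit, had deposited values of 934, 764 and 1048 in control and 928 and 366 in Mef2c-deficient pro-B cells. Mef2c-deficient replicate 1 lay among the control arrays and only replicate 2 was below them. The log2 fold change of −0.64 (standard error 0.47, 1.36-fold lower in signal) did not meet the call. It was 0.032 without Mef2c-deficient replicate 2, −1.31 without replicate 1, where the call was met, and 0.13 with housekeeping centring.

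Ssbp1 (chr6:40471414-40481823), the single-strand binding protein, had deposited values of 13566, 16966 and 17678 in control and 4152 and 7783 in Mef2c-deficient pro-B cells. Here Mef2c-deficient replicate 1 was the lower one, and both lay far below the lowest control array. Means were 16070 ± 2198 (SD, n = 3) and 5967 ± 2567 (SD, n = 2), with a log2 fold change of −1.49 (standard error 0.36) and 2.05-fold lower in signal. Ssbp1 met the call whichever array was left out, at −1.04 without Mef2c-deficient replicate 1 and −1.94 without replicate 2. Housekeeping centring, cyclic loess and a further quantile normalization ended it, with −0.47 after cyclic loess.

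Nrf1 (chr6:30047985-30153458), the nuclear regulator, had deposited values of 11239, 7774 and 14809 in control and 5504 and 2697 in Mef2c-deficient pro-B cells. The control arrays were more spread than for Ssbp1, yet all were above both Mef2c-deficient arrays. Means were 11274 ± 3517 (SD, n = 3) and 4100 ± 1985 (SD, n = 2), with a log2 fold change of −1.50 (standard error 0.46) and 2.06-fold lower in signal. Without Mef2c-deficient replicate 2 it was −0.99 and the call was not met, nor was it without control replicate 1 or control replicate 3.

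Across the 8 members, Mef2c-deficient replicate 2 was the lower of the Mef2c-deficient arrays in 6, the exceptions being Tfb1m and Ssbp1. Control replicate 3 was the highest array in 6 members and control replicate 2 the lowest control array in 5. Markers of T and NK cells and of plasmacytoid dendritic cells were also higher on Mef2c-deficient replicate 2. The summed level of 12 measured markers of T and NK cells was 54823 there, against 12159 to 18050 on control arrays and 8235 on Mef2c-deficient replicate 1, and none of the 12 was under the lower quartile of that array, where 2 were on each of the other arrays. For 5 markers of plasmacytoid dendritic cells the sums were 80071 there, 36041 to 51472 in control and 11165 on Mef2c-deficient replicate 1. For 10 myeloid markers they were 5142650, against 2154660 to 4503280 in control and 2384020 on replicate 1, and for 5 erythroid markers 4647, against 777 to 900 in control and 1526 on replicate 1. The median ratio of a marker on replicate 2 to the other arrays was 3.40 for T and NK cells and 2.99 for plasmacytoid dendritic cells, but 1.38 for myeloid markers, against 1.41 on control replicate 2, and 1.06 for erythroid markers on either Mef2c-deficient array. The 10 measured pro-B cell markers, among them Cd79a, Ebf1, Igll1, Dntt and Il7r, summed to 652490 on replicate 2, against 933677 to 1417170 in control and 1212270 on replicate 1, with none under the lower quartile on any array. Their median ratio to the other arrays was 0.60 on replicate 2 and 0.92 on replicate 1. On control replicates 1, 2 and 3 this ratio was 0.97, 0.71 and 1.74. Hybridisation control probe sets, for transcripts added in fixed amount, were compared on log2 of the deposited values. Their median deviation was 1.97 on Mef2c-deficient replicate 1 and 0.12 on replicate 2, against −1.58 to −0.049 in control. The part of these differences in the values of the members was not tested.

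Members lay in the brighter part of the arrays, where most transcripts were lower in Mef2c-deficient pro-B cells. With all probe sets in 10 groups by level, the median log2 fold change was 0.56 in the dimmest group, −0.20 in the seventh, −0.84 in the eighth, −1.07 in the ninth and −0.90 in the brightest. Polrmt and Polg2 fell into the seventh group, where 16.1% of probe sets met the call for lower. Tfb1m fell into the eighth, with 27.3%. Tfam, Tfb2m and Polg fell into the ninth, with 38.5%, and Ssbp1 and Nrf1 into the tenth, with 31.8%. Set beside their groups, Tfb1m and Tfb2m had fold changes closer to 0 than the median of their group, and the other 6 were more negative than theirs.

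**Figure D2:**
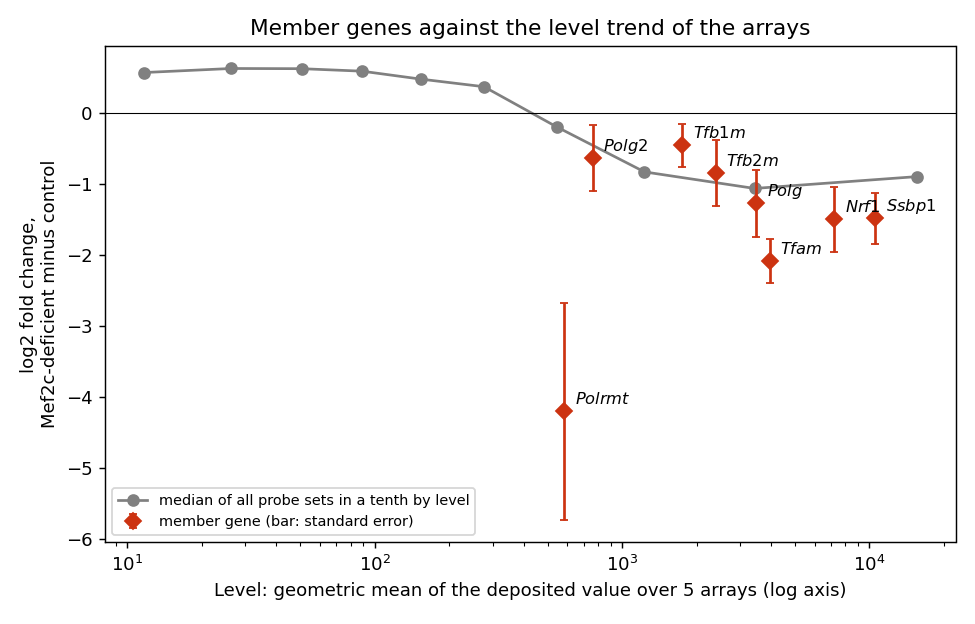
Log2 fold change (vertical axis, Mef2c-deficient minus control) against level (horizontal log axis, geometric mean of the deposited value over 5 arrays), with a grey line for the median of all probe sets in 10 groups by level and a red point for each member, bars giving the standard error. The line runs between 0.62 at its highest, in the second group, and −1.07 at its lowest, in the ninth, and Polrmt at −4.21 is the point farthest below it.

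Housekeeping centring, cyclic loess and a further quantile normalization each moved all 8 members in the positive direction. Array median centring moved all 8 the other way, to −4.44 for Polrmt and −2.32 for Tfam, and 6 members then met the call, with Tfb2m (−1.08) added. The scalings also moved the median of all probe sets, from 0.19 as deposited to 0.026 after further quantile normalization, 0.0073 after cyclic loess, −0.044 with array median centring and 0.96 when the arrays were centred on 9 housekeeping genes. Only Polrmt and Tfam met the call after further quantile normalization or cyclic loess, and only Tfam with housekeeping centring. The share of probe sets called lower and higher was 7.69% and 8% after further quantile normalization, 7.69% and 6.68% after cyclic loess, 19.7% and 6.54% with array median centring and 3.22% and 44.6% with housekeeping centring. Under a fold of 2 in signal, 4 members met the call, all of those above except Polg. Of all probe sets, 8.51% were then called lower and 4.57% higher.

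**Figure D3:**
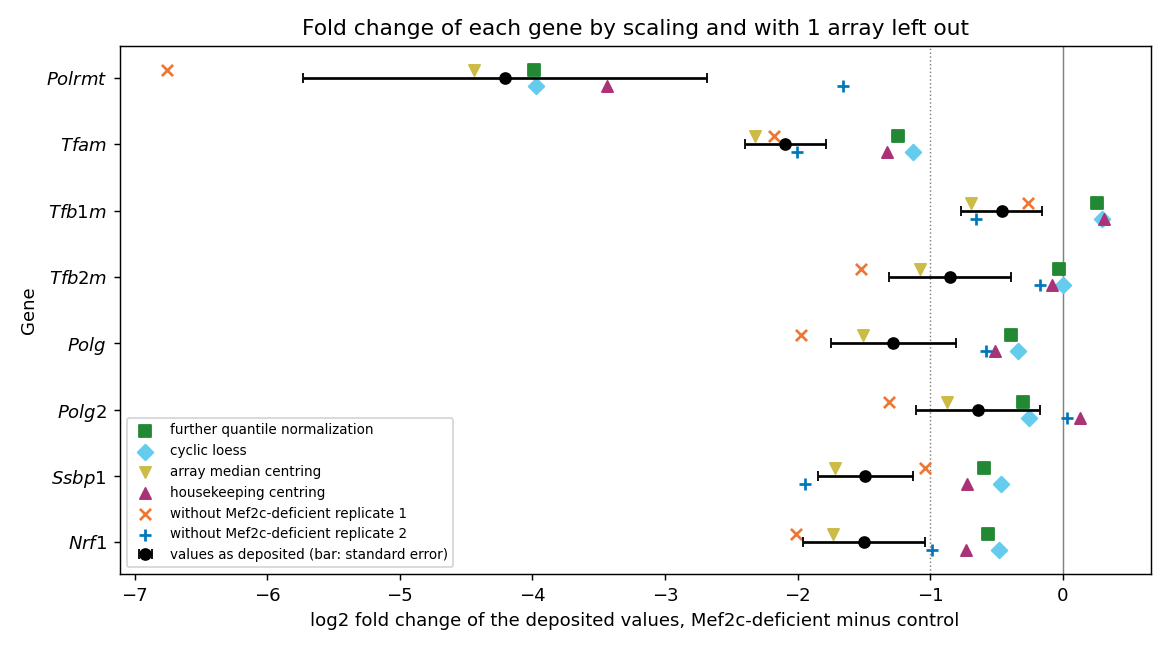
Log2 fold change of each member (horizontal axis, Mef2c-deficient minus control) as deposited (black, with standard error), after 4 other scalings and without either Mef2c-deficient array; the dotted line marks a fold of 2. Polrmt spans −6.76 to −1.66 with the left-out array, whereas Tfam stays below −1 throughout, and Tfb1m, Tfb2m and Polg2 reach 0 or cross it.

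Genes that work with the members were taken from lists by function, 1 probe set a gene, with the members themselves left out. The probe sets of Atad3a, Tbrg4 and Hcfc1, like those of Tfb1m and Ssbp1, can match transcripts of more than 1 gene. Counted by gene, 16.6% of all 17323 genes met the call for lower and 9.56% that for higher. Among the list genes that met the call, the adjusted p from limma was 0.102 to 0.160, so none passed after adjustment. The median gene of the replication, nucleotide and elongation lists lay in the eighth of the 10 groups by level. That of the RNA processing and regulator lists lay in the ninth. In these groups 27.3% and 38.5% of probe sets met the call for lower. The median log2 fold change of all probe sets there was −0.84 and −1.07. The list genes that passed but lost the call at a fold of 2 in signal were Twnk, Slc25a36, Hsd17b10, Fastkd5, Ptcd3 and Nfe2l2, at 1.63-fold to 1.92-fold lower in signal. Of 13 measured enzymes of mitochondrial DNA replication and repair, 6 fell, 0 rose and 7 did not pass, with 12 of 13 negative and a median of −1.28. Fen1, a flap endonuclease of nuclear and mitochondrial DNA, had deposited values of 3611, 3929 and 4984 in control and 876 and 682 in Mef2c-deficient pro-B cells. Its log2 fold change was −2.42 (standard error 0.28), and it passed under all 14 alternatives. Twnk, the Twinkle helicase, was at 1568, 1541 and 1668 in control and 671 and 640 in Mef2c-deficient pro-B cells. Replicates of Twnk lay within a narrow range in both groups, and it fell by 1.28 on the log2 scale (standard error 0.22). Dna2 (−1.59, standard error 0.26), a nuclease and helicase that also serves nuclear replication, and Atad3a (−1.54, standard error 0.29), a membrane ATPase of nucleoids, passed as well. Rnaseh1 (−2.07, standard error 0.59), which removes RNA primers, lost its call without control replicate 1 (−2.11) or 3 (−1.93), and Endog (−1.86, standard error 0.53), a nuclease, without control replicate 1 (−1.86) or 2 (−1.72). Twnk, Dna2, Atad3a and Endog lost the call after further quantile normalization, after cyclic loess and with housekeeping centring, and Rnaseh1 with housekeeping centring. Lonp1, the protease that degrades TFAM, was at −2.13 and did not pass (standard error 0.91).

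Of 9 measured genes of mitochondrial nucleotide supply, 1 fell, 0 rose and 8 did not pass, while all 9 were negative and the median was −1.10. The gene that fell was Slc25a36, a pyrimidine nucleotide carrier, at 1116, 1116 and 1833 in control and 464 and 567 in Mef2c-deficient pro-B cells. Its log2 fold change was −1.36 (standard error 0.33), and it was −1.22 and not called without Mef2c-deficient replicate 1, nor was it called after cyclic loess (−0.88) or with housekeeping centring.

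In the list of mitochondrial transcription elongation and termination, 2 of 6 measured genes fell, 0 rose and 4 did not pass, with all 6 negative and a median of −1.71. Tefm, the elongation factor of POLRMT, had deposited values of 1140, 784 and 1267 in control and 356 and 315 in Mef2c-deficient pro-B cells. Both Mef2c-deficient arrays were well below the lowest control array. Its log2 fold change was −1.64 (standard error 0.31), and it passed under 13 of 14 alternatives, the exception being housekeeping centring. Mterf3, a termination factor family member, was at 2911, 2573 and 4021 in control and 1243 and 187 in Mef2c-deficient pro-B cells. Like Polrmt it was much lower on Mef2c-deficient replicate 2, and its log2 fold change of −2.69 (standard error 0.85) lost the call without control replicate 1, 2 or 3, at −2.83 to −2.51, after further quantile normalization (−2.20) and with housekeeping centring.

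Of 20 genes of mitochondrial RNA processing and decay, 9 fell, 0 rose and 11 did not pass. All 20 were negative, with a median of −1.03, beside −1.07 over all probe sets of the ninth group by level. Elac2, which cuts the 3′ ends of tRNAs, had deposited values of 1891, 2136 and 1412 in control and 295 and 251 in Mef2c-deficient pro-B cells. It fell by 2.72 on the log2 scale (standard error 0.29). The RNA degradation pair fell too, Pnpt1, a polynucleotide phosphorylase, with −2.00 (standard error 0.31) and Supv3l1, an RNA helicase, with −2.46 (standard error 0.61), and these 3 genes passed under all 14 alternatives. Mtpap, the poly(A) polymerase, fell by 2.24 (standard error 0.83), but was at −0.87 and did not pass when Mef2c-deficient replicate 2 was left out, and it lost the call without control replicate 1, 2 or 3, at −2.27 to −2.16. The others were Tbrg4 (−2.11), Fastkd2 (−1.73), Fastkd5 (−1.04), Hsd17b10 (−1.02) and Ptcd3 (−1.01), RNA binding or processing factors that passed with standard errors of 0.24 to 0.63. With housekeeping centring these 5 and Mtpap lost the call. Mtpap (−1.46), Fastkd2 (−1.41), Fastkd5 (−0.22), Hsd17b10 (0.002) and Ptcd3 also lost it after cyclic loess. All of these but Fastkd2 lost it after further quantile normalization too. Tbrg4, Fastkd2, Fastkd5, Hsd17b10 and Ptcd3 each lost the call without at least 1 array. For Tbrg4 (−1.21), Fastkd2 (−1.04), Fastkd5 (−0.68) and Hsd17b10 (−0.88) this was Mef2c-deficient replicate 2, and for Ptcd3 (−0.82) replicate 1. Leaving out control replicate 1 also ended the call for Tbrg4, Fastkd2, Hsd17b10 and Ptcd3, control replicate 2 for Fastkd2 and Fastkd5, and control replicate 3 for Tbrg4, Fastkd5 and Ptcd3.

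Among 16 nuclear regulators of mitochondrial genes, 7 fell, 0 rose and 9 did not pass, with 14 negative and a median of −1.28. Myc, a transcription factor of cell growth that activates many genes of mitochondrial biogenesis, had deposited values of 50348, 41281 and 22264 in control and 5783 and 7696 in Mef2c-deficient pro-B cells. It fell by 2.43 on the log2 scale (standard error 0.43). Hcfc1, a coregulator of promoters, fell by 2.19 (standard error 0.45), and both genes passed under all 14 alternatives. Pprc1 (−2.24, standard error 0.62), a coactivator of NRF1, and Sirt1 (−1.97, standard error 0.69), a deacetylase, passed but lost the call without control replicate 1, 2 or 3, and Sirt1 also without Mef2c-deficient replicate 2 (−0.85). Gabpb2 (−1.61, standard error 0.37) and Gabpa (−1.54, standard error 0.52) encode GABP subunits, of which the alpha subunit binds the ETS core, and Nfe2l2 (−1.17, standard error 0.31) the regulator of oxidant defence. Gabpa lost the call without control replicate 1 or either Mef2c-deficient array, and Nfe2l2 without control replicate 3 or Mef2c-deficient replicate 1. Gabpb2 lost it with housekeeping centring (−0.84), after cyclic loess (−0.61) and after further quantile normalization (−0.69), and so did Pprc1, Sirt1, Gabpa and Nfe2l2 under each of these scalings.

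**Figure D4:**
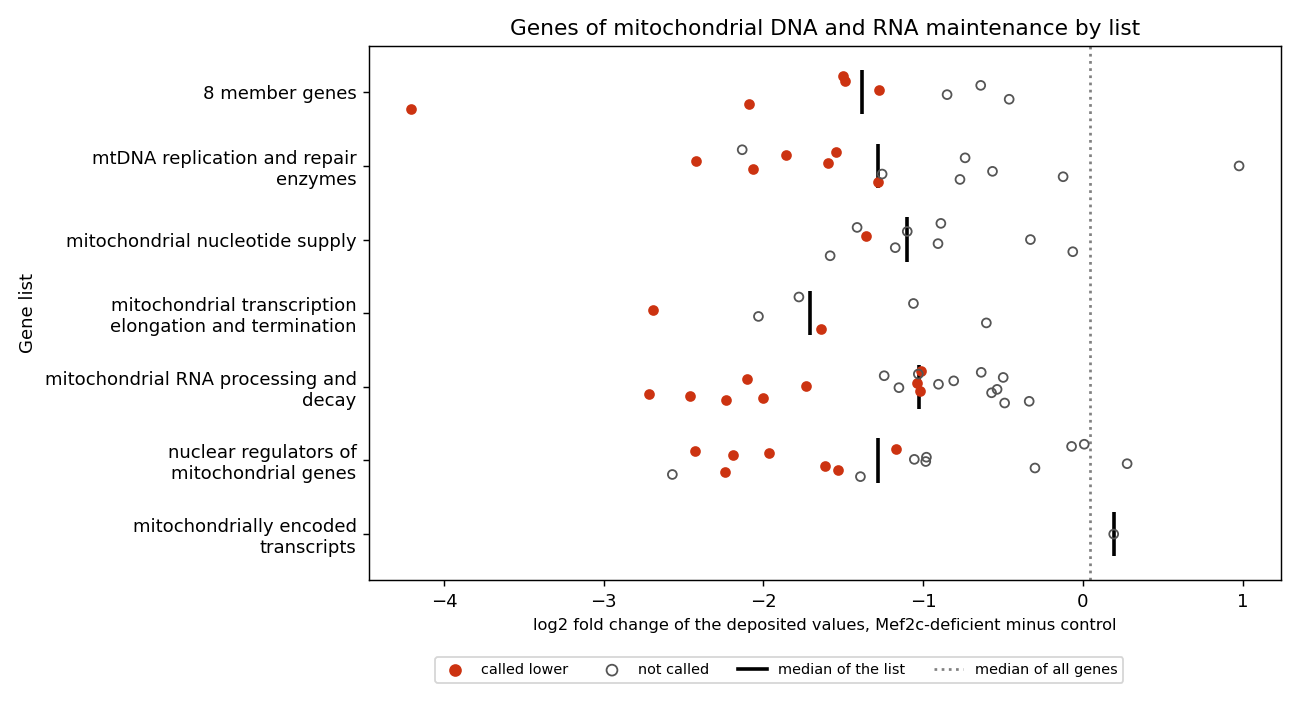
Log2 fold change (horizontal axis, Mef2c-deficient minus control) of the 8 members and of the genes of each list (rows), 1 point a gene, red where the call for lower was met, with a black bar at the median of the list and a dotted line at the median of all genes, 0.043. The medians of the member row and of the 5 lists of nuclear genes lie between −1.71 and −1.03. All probe sets in the eighth and ninth groups by level, where the median genes of these 5 lists lay, had medians of −0.84 and −1.07. ND5, the single transcript of the mitochondrial genome, lies at 0.19.

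The product of this machinery was seen through 1 of 15 listed transcripts of the mitochondrial genome. ND5, a respiratory chain subunit, had deposited values of 259479, 259374 and 208581 in control and 264820 and 286981 in Mef2c-deficient pro-B cells. Both Mef2c-deficient arrays were above every control array, which held for 27.5% of all probe sets. For Polrmt and Tfam both were below, which held for 23.5%. The log2 fold change of ND5 was 0.19 (standard error 0.24), and did not pass. It was −0.038 with array median centring, 0.42 after further quantile normalization, 0.90 after cyclic loess and 0.96 with housekeeping centring. Other mitochondrially encoded transcripts were not analysed here.

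Of the 72 other genes among the members and lists, those whose pattern over the 5 arrays was most like that of Polrmt were Ppargc1b, Mterf3, Mterf2, Mtpap and Lonp1. Likeness was the root mean square difference of log2 values, each gene centred on its own mean, and was 0.97, 1.08, 1.12, 1.24 and 1.29 for these genes, with 0 for the same pattern. All 5 had their lowest value on Mef2c-deficient replicate 2, as Polrmt did. The choice by likeness to Polrmt favours this, so nothing is read from it. Ppargc1b, a coactivator, was at 279, 494 and 456 in control and 223 and 20.1 on the Mef2c-deficient arrays, and its log2 fold change of −2.57 (standard error 1.06) did not pass. For Mterf2 the control values were 844, 844 and 2299, and the Mef2c-deficient values 1476 and 56.4.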

How the data were processed

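RNA of sorted pro-B cells from 3 control and 2 Mef2c-deficient samples was hybridised to Affymetrix arrays. The deposited values are probe set intensities on a linear scale, which the authors made by robust multiarray averaging (RMA), and their detection filter could not be applied here. Of 23835 rows, 26 control probe sets were left out. Symbols came from the GEO platform annotation, updated by gene ID to RefSeq, and named 1 gene for 17621 probe sets, several for 516 and none for 5672. Log2 of the deposited values was fitted with limma 3.58.1 in R 4.3.3 across all probe sets, and p-values were adjusted by Benjamini-Hochberg. A probe set was called at a 2-fold or larger difference of deposited values with an unadjusted p no higher than 0.05, thresholds the study uses for its arrays. Equal values on some pair of arrays occurred in 42.8% of probe sets. Lists used the brightest probe set of each gene, and 9 of 12 housekeeping genes were measured. Named genes were all members, every list gene that met the call, the 5 genes most like Polrmt and Mef2c; Lonp1 was also named in its list. The members, lists and markers were chosen with earlier results of these data known. The fit was tested on simulated data. Alternatives were 4 scalings, a fold of 2 in signal, leaving out dim probe sets, 1 probe set a gene, array weights, a replicate block and leaving out each array.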

Additional observations from a re-analysis of the deposited data

How the results depend on the processing

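Of all probe sets, 3206 were called lower and 2401 higher as deposited. Lower calls numbered 1832 after further quantile normalization, 1832 after cyclic loess, 2025 at a fold of 2 in signal and 767 with housekeeping centring. Higher calls numbered 1591 after cyclic loess, 1558 with array median centring, 10619 with housekeeping centring, 1089 at a fold of 2 in signal, 576 without dim probe sets, 1441 with array weights and 1404 to 4389 with 1 array left out (4389 without Mef2c-deficient replicate 2). The count of members called lower, 5 as deposited, was 2 after further quantile normalization and after cyclic loess and 1 with housekeeping centring. Without control replicate 1, 2 or 3 the count was 2, 3 and 2. Of all probe sets, 9.08%, 10.2% and 9.55% were called lower in these 3 settings. Tfb1m turned to 0.26, 0.29 and 0.31 after a further quantile normalization, after cyclic loess and with housekeeping centring, Tfb2m to 0.00077 after cyclic loess, and Polg2 to 0.13 with housekeeping centring and from −1.31 to 0.032 with 1 array left out (0.032 without Mef2c-deficient replicate 2). The cause was not tested.

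Replication and repair enzymes called lower, 6 as deposited, were 3 after further quantile normalization and cyclic loess and 1 with housekeeping centring, where 1 (Lig3) was called higher, as it was without Mef2c-deficient replicate 1 (0 to 1 with 1 array left out). Nucleotide supply genes called lower, 1 as deposited, were 0 at a fold of 2 in signal, after cyclic loess and with housekeeping centring, 4 with array median centring, and 1 to 3 with 1 array left out, and Dguok was called higher without Mef2c-deficient replicate 1 (0 to 1). Elongation and termination genes were 1 after further quantile normalization, 0 with housekeeping centring and 1 to 3 with 1 array left out. RNA processing genes were 4 after cyclic loess, 3 with housekeeping centring and 4 to 10 with 1 array left out. Regulators were 3 after further quantile normalization and cyclic loess, 2 with housekeeping centring and 4 to 7 with 1 array left out.

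The labels do not say whether the replicate numbers pair the samples. Deviations of same-numbered arrays correlated at 0.105 and −0.0307. With only 2 Mef2c-deficient arrays their deviations mirror each other, so these correlations cannot decide it. The replicate block leaves control replicate 3 without a partner. With it, lower calls were 3 for the members, 0 for nucleotide supply, 5 for RNA processing and 4 for regulators. Of all probe sets, 9.17% were then called lower and 4.29%, or 1022, higher. Other counts stayed within 1.5 times those as deposited. Signal close to background limits the fold of Polrmt and Ppargc1b on Mef2c-deficient replicate 2.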
